A study of Mus musculus with 16 samples.

Results

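The AP-1 genes described here are the 4 Fos family genes Fos, Fosb, Fosl1 and Fosl2, the 3 Jun family genes Jun, Junb and Jund, and Atf3. They were picked out of the deposited gene tables by name and are 8 of 41325 genes. The set was chosen with earlier results of these data known. All libraries came from 1 line of immortalized mouse preadipocytes, fat cell precursors kept in culture, wild type and of strain C57Bl6/J. In the untreated group of day 0 the cells received no agent, and in the IL-13 group of day 0 they had been given interleukin-13, a type 2 immune cytokine, for 16 h. The untreated group of day 6 and the IL-13 group of day 6 held cells with the same 2 histories after 6 days of differentiation towards adipocytes. Each group had 4 libraries, numbered 1 to 4. The labels do not say that these came from separate cultures, so p-values measure only the spread between the libraries, which may be technical.

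AP-1 is a family of dimeric transcription factors of the basic leucine zipper (bZIP) class. Jun proteins pair with each other or with a Fos protein, while Fos proteins need a Jun partner to bind DNA, and Atf3 pairs with Jun proteins or with itself. The dimers bind the AP-1 element or the cyclic AMP response element. Fos, Fosb, Jun, Junb and Atf3 are immediate early genes, whose short-lived transcripts rise within minutes of growth factor, stress or serum signals through MAP kinases. Fosl1 accumulates with sustained ERK activity, and Jund and Fosl2 are present more steadily. In preadipocytes Fos and Jun are known for a brief induction when differentiation starts, and AP-1 elements lie in the promoter of the adipocyte gene Fabp4.

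In the coordinates of the deposited tables (GRCm38, mm10), Fos (ENSMUSG00000021250) lies on chromosome 12 from 85473890 to 85477273 on the + strand, and Fosb (ENSMUSG00000003545) on chromosome 7 from 19302696 to 19310051 on the - strand. Fosl1 (ENSMUSG00000024912) lies on chromosome 19 from 5447703 to 5455945 on the + strand, and Fosl2 (ENSMUSG00000029135) on chromosome 5 from 32135801 to 32157842 on the + strand. Jun (ENSMUSG00000052684) lies on chromosome 4 from 95049034 to 95052222 on the - strand. Junb (ENSMUSG00000052837) and Jund (ENSMUSG00000071076) both lie on chromosome 8, from 84974484 to 84978718 on the - strand and from 70698949 to 70700616 on the + strand. Atf3 (ENSMUSG00000026628) lies on chromosome 1 from 191170296 to 191218039 on the - strand.

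RefSeq (GRCm38.p6) held a promoter for 7 of the 8 genes, all but Fosl1. The 250 bases before the start are shown for Jun and Atf3, the Jun family gene and the stress gene with the largest rises among these genes in IL-13 cells at day 0, and for Fos, the gene with the largest fall there. Capitals mark matches to the motifs searched.
Jun, chr4:95052223-95052472, - strand: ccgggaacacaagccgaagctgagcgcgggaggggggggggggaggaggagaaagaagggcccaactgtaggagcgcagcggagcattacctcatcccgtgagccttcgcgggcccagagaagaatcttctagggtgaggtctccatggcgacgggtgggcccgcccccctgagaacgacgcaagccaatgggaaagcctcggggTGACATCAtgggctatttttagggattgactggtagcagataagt
Atf3, chr1:191183334-191183583, - strand: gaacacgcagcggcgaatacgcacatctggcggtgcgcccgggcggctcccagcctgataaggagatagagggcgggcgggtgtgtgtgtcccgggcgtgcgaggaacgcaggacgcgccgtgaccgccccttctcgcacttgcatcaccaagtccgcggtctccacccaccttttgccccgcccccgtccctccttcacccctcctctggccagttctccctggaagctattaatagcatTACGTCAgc
Fos, chr12:85473640-85473889, + strand: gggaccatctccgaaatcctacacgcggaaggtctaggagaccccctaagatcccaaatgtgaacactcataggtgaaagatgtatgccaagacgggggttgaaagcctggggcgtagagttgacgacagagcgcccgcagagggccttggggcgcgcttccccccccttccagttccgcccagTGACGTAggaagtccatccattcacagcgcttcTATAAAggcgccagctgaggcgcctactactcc
The Jun promoter held TGACATCA at positions -45 to -38 before the start, the element through which Jun dimers are known to act on the gene's own promoter, and 2.93% of 32851 promoter windows of this length held it. The motif TACGTCA, a cyclic AMP response element short of 1 base, stood in the Atf3 promoter at positions -9 to -3 and on the other strand of the Fos promoter at positions -66 to -60. It occurred in 1.08% of all windows. Fos also held a TATA box, TATAAA, at positions -33 to -28 (12.4% of all windows). Both strands were searched, and matches to different motifs did not overlap in these promoters. None of the 7 promoters held the AP-1 element TGANTCA (6.75% of all windows) or the full cyclic AMP response element TGACGTCA (1.55%). These are matches of letters in 250 bases and not measured sites. The Atf3 window lies inside the gene as the tables give it, with an offset of -34706 bases between the table's start and the RefSeq start. For Fosl2 and Jund, whose windows are not shown, the offsets were -671 and 1210 bases.

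The libraries held between 15253031 and 18112087 counts. Levels are in CPM, a gene's counts relative to the total of its library, with totals scaled by the trimmed mean of M values (TMM) over the 16 libraries, and are given as mean ± SD over n = 4 libraries. Summed markers of adipocytes, 9 genes such as Adipoq and Fabp4, rose from 480-552 CPM at day 0 to 27033-30480 CPM at day 6, with Cd36 at 0 at day 0. The 9 preadipocyte markers summed to 7603-13516 CPM at day 0 and 939-1283 CPM at day 6, with Dpp4 at 0 at day 6. Col1a1 alone held 465-843 CPM in IL-13 libraries 1 to 3 of day 6. By day 6, at an edgeR adjusted p under 0.05, 5 of 8 tested markers fell and Zfp423 rose in untreated cells. In IL-13 cells 7 fell and Zfp423 rose, where 80.5% and 80.8% of all genes changed in the 2 comparisons. At day 0 their sum was higher in the IL-13 libraries (11796-13516 CPM) than in the untreated ones (7603-10809 CPM). Of the 8 tested 4 were higher at that threshold and none lower, where 23.7% and 24.2% of all genes were. The part of these markers in the AP-1 values was not tested. Macrophage markers summed to at most 11.9 CPM, with Adgre1 and C1qa at 0 in all 16 libraries. Day 0 and day 6 were deposited in 2 tables, and a difference between days cannot be told apart from one between tables. In bulk RNA, fewer cells with a transcript and less of it per cell cannot be told apart.

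The members differed widely in level. Between genes, levels were compared by the authors' TPM, which account for transcript length. In untreated cells at day 0 Fosl2 stood at 39.1 ± 1.65 TPM, Jun at 37.8 ± 2.49 TPM and Fosl1 at 37.5 ± 3.66 TPM, levels that did not differ beyond their spread. Jund followed at 21.7 ± 2.38 TPM. Junb at 6.54 ± 1.34 TPM, Fos at 5.23 ± 1.70 TPM and Atf3 at 4.13 ± 0.568 TPM again lay within or near each other's spread. Fosb was the lowest at 0.842 ± 0.115 TPM, from 23 to 30 counts per library, so its values carry much counting error.

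The make-up of the AP-1 transcripts shifted with IL-13 at day 0. Jun family transcripts made up 43.2% ± 0.698 of the summed TPM of the 8 genes in untreated cells and 67.3% ± 1.82 in IL-13 cells, and Fos family transcripts 54.1% ± 0.619 and 28.4% ± 1.81 (SD, n = 4). The ranges did not overlap, with 42.2-43.8% in untreated and 65.3-69.0% in IL-13 libraries for the Jun family. The sum itself was 153 ± 9.80 TPM in untreated and 196 ± 5.75 TPM in IL-13 cells. At day 6 the Fos family held 67.4% ± 4.20 in untreated and 66.1% ± 3.61 in IL-13 cells, and the Jun family 19.1% ± 3.44 and 19.4% ± 3.94. Fosl1 alone made up 45.9% ± 4.30 and 45.2% ± 3.65 there, against 24.5% ± 1.22 and 12.5% ± 1.43 at day 0. Atf3 went from 2.72% ± 0.480 and 4.31% ± 0.340 at day 0 to 13.4% ± 0.795 and 14.5% ± 1.33 at day 6. These shares are descriptions from the authors' TPM, with no test.

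**Figure D1:**
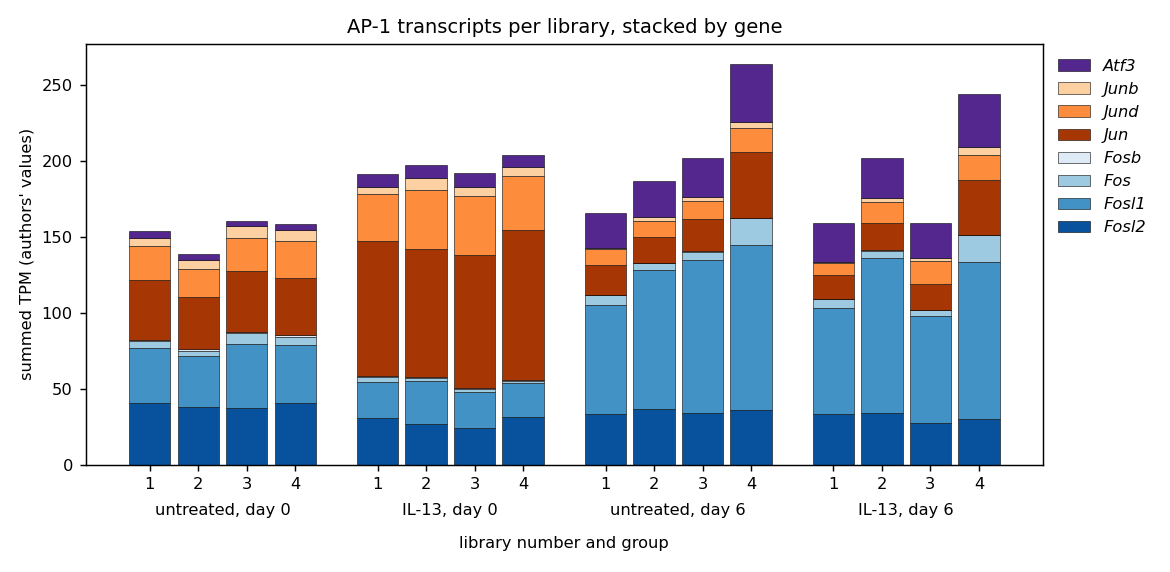
Stacked bars give the authors' TPM (y axis, linear, from 0) of the 8 AP-1 genes in each of the 16 libraries (x axis, 4 groups of 4), with blue for the Fos family, orange for the Jun family and purple for Atf3. Jun family transcripts held 67.3% of the sum in IL-13 cells at day 0 and 43.2% in untreated cells, and Fosl1 held 45.9% and 45.2% at day 6.

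IL-13 at day 0 went with higher Jun, Jund and Atf3 and with lower Fos, Fosl1 and Fosl2. Jun had the largest change of the 8, a 2.72-fold rise, followed by Atf3 with a 2.35-fold rise and Fos with a 2.12-fold fall. Called here means a Benjamini-Hochberg adjusted p under 0.05 in edgeR's quasi-likelihood test, which was run on each gene passing a filter on low counts. All 8 members passed it, 3 rose, 3 fell and 2 were not called, where 47.9% of the 12274 genes tested were called (23.7% higher and 24.2% lower). With total count scaling 1682 of 6205 called genes were higher and the same number of members, 6, was called. The groups did not overlap in the 6 called genes, a pattern seen in 40.4% of all genes. The 6 of 8 called lie above that background, but with only 8 genes this is not read as set apart from it. The sizes of Jun, Atf3 and Fos were far from the median of all genes, a log2 fold change of -0.01. A fold of at least 2 in either direction was found in 532 of the 12274 genes, Jun, Atf3 and Fos among them.

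**Figure D2:**
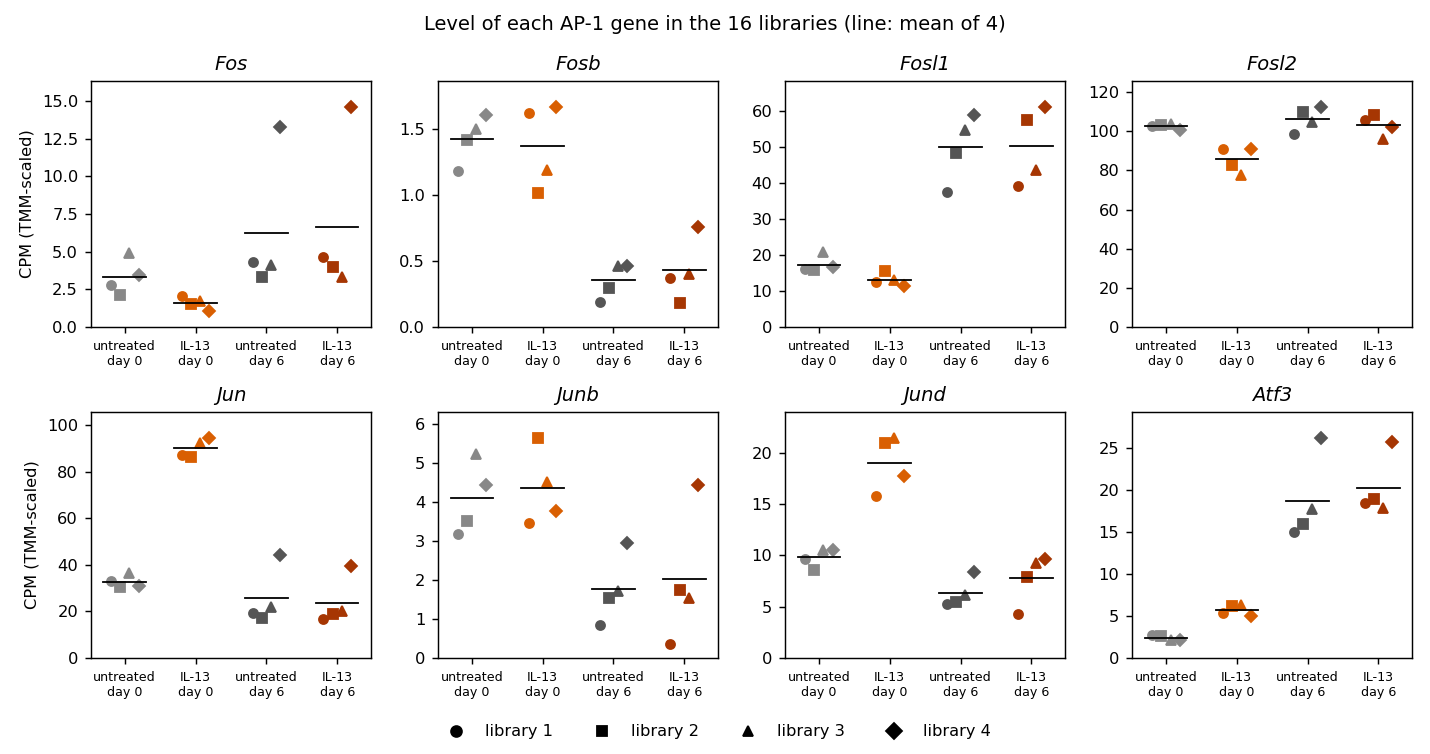
Each panel plots 1 gene's CPM on TMM-scaled library sizes (y axis, linear, from 0) in the 4 libraries of each group (x axis; circle, square, triangle and diamond for libraries 1 to 4), with a line at the group mean. Jun in the IL-13 libraries of day 0 sits between 86.2 and 94.4 CPM, above all other libraries, and library 4 stands above libraries 1 to 3 in both day 6 groups for Fos, Jun and Atf3.

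Among the Jun genes, Jun encodes the Fos partner that activates transcription most strongly. It stood at 33.0, 30.5, 36.7 and 30.7 CPM in untreated libraries 1 to 4 and at 87.3, 86.2, 92.2 and 94.4 CPM in the IL-13 libraries. The groups were far apart, with the highest untreated library at 36.7 CPM and the lowest IL-13 library at 86.2 CPM. The mean went from 32.7 ± 2.86 to 90.0 ± 3.91 CPM (log2 fold change 1.45, SE 0.06, edgeR adjusted p = 9.53e-11). Only 147 of the 12274 genes had a larger fold change upward.

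Jund encodes the Jun protein known to restrain growth and is usually steady. Its levels were 9.63, 8.62, 10.5 and 10.5 CPM in untreated and 15.8, 21.0, 21.4 and 17.8 CPM in IL-13 libraries. All 4 IL-13 libraries lay above all 4 untreated ones, with a wider spread among them. The mean went from 9.82 ± 0.900 to 19.0 ± 2.69 CPM (log2 fold change 0.93, SE 0.11, edgeR adjusted p = 6.56e-06). Junb encodes a Jun protein that activates less strongly than Jun. It stood at 3.18, 3.51, 5.24 and 4.44 CPM in untreated and at 3.48, 5.64, 4.51 and 3.77 CPM in IL-13 libraries. The groups overlapped, and the log2 fold change of 0.07 (SE 0.18, edgeR adjusted p = 0.763) was smaller than its error.

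Atf3 encodes a stress-induced bZIP factor that often represses. Untreated libraries 1 to 4 held 2.72, 2.59, 2.19 and 2.14 CPM and IL-13 libraries 5.39, 6.14, 6.29 and 5.05 CPM. Every IL-13 library stood above every untreated one, and the mean went from 2.41 ± 0.286 to 5.72 ± 0.595 CPM (log2 fold change 1.23, SE 0.14, edgeR adjusted p = 6.37e-06). Counts were 38 to 53 per untreated library and 79 to 106 per IL-13 library.

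Among the Fos genes, Fos is the classical immediate early gene. Its levels were 2.82, 2.16, 4.95 and 3.48 CPM in untreated and 2.04, 1.52, 1.72 and 1.09 CPM in IL-13 libraries. The groups did not overlap, but untreated library 2 lay close to IL-13 library 1. The mean went from 3.35 ± 1.20 to 1.59 ± 0.398 CPM (log2 fold change -1.08, SE 0.26, edgeR adjusted p = 0.00342), from 17 to 86 counts per library. In a fit of all 16 libraries, which shares 1 estimate of spread with day 6, the call was lost (edgeR adjusted p = 0.215).

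Fosl1 encodes a Fos protein without the activation domain of Fos. It stood at 16.2, 15.9, 20.8 and 16.8 CPM in untreated and at 12.6, 15.5, 13.2 and 11.3 CPM in IL-13 libraries. The groups were next to each other without overlap, and the mean went from 17.4 ± 2.31 to 13.2 ± 1.76 CPM (log2 fold change -0.42, SE 0.11, edgeR adjusted p = 0.00483). The fit of all 16 libraries did not call it (edgeR adjusted p = 0.0735). Fosl2, the other Fos protein of this kind, stood at 103, 103, 104 and 101 CPM in untreated and at 90.9, 82.9, 77.5 and 90.8 CPM in IL-13 libraries. Untreated libraries were close together and all above the IL-13 libraries, and the mean went from 102 ± 1.36 to 85.5 ± 6.52 CPM (log2 fold change -0.28, SE 0.06, edgeR adjusted p = 0.00126). Fosb, close in structure to Fos, overlapped between the groups with 1.18-1.61 CPM in untreated and 1.013-1.66 CPM in IL-13 libraries. Its log2 fold change was -0.07 (SE 0.22, edgeR adjusted p = 0.820).

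The 15 RNAs listed as kept in the nucleus or rich in retained introns, such as Malat1 and Neat1, moved with IL-13 in the same libraries. All 14 that were tested were called lower at day 0, where 24.2% of all genes were, and 13 were in the fit of all 16 libraries. Their summed level was 1334-1906 CPM in untreated and 1021-1212 CPM in IL-13 libraries. Their part in the AP-1 values was not tested. Leaving out untreated libraries 1 and 4, the highest for these RNAs at 1906 and 1709 CPM, left the same count of 6 members called.

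**Figure D3:**
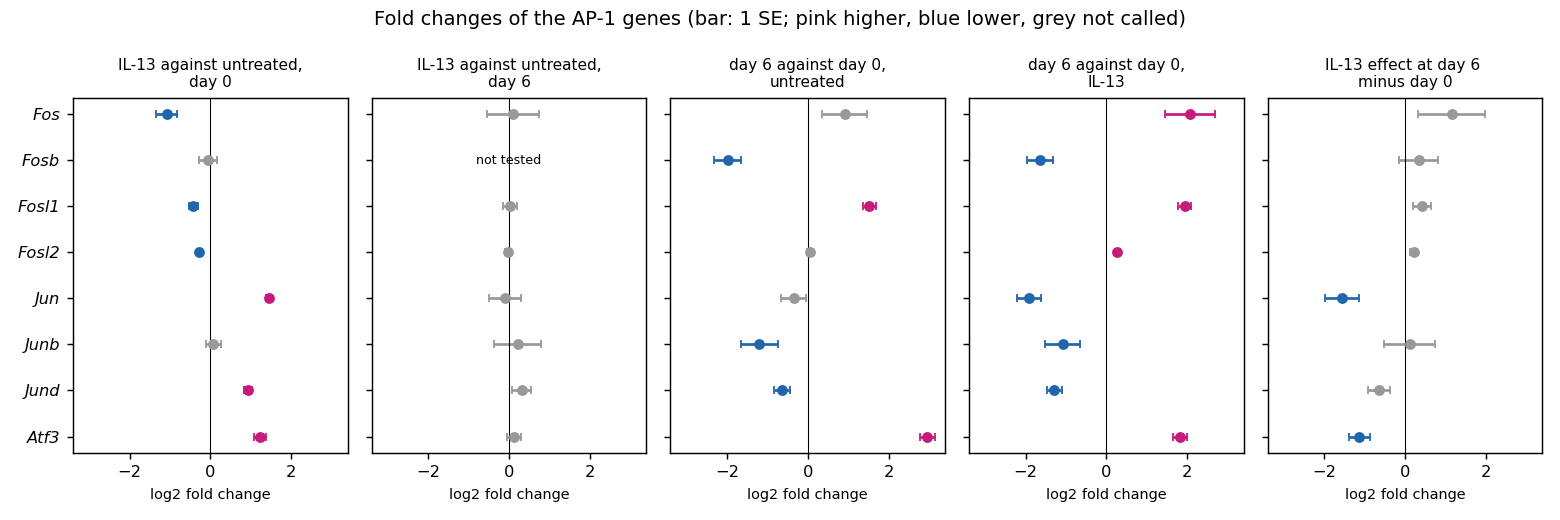
Each panel gives the log2 fold change (x axis) of the 8 AP-1 genes (y axis) in 1 comparison, with a bar of 1 SE on each side; pink is called higher, blue called lower and grey not called at an adjusted p under 0.05. Jun, Jund and Atf3 lie to the right at day 0, with 1.45, 0.93 and 1.23, no gene is called at day 6, and Jun at -1.57 and Atf3 at -1.13 are called for the difference between the days.

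At day 6 no AP-1 gene was called between IL-13 pre-treated and untreated cells. Of the 8 genes 7 passed the filter on low counts, and edgeR called 0 of them and DESeq2 likewise 0, where edgeR called 6.55% of the 12352 genes tested (2.21% higher and 4.34% lower), and with total count scaling 53 of 1085 called genes were higher. That background rests on single libraries: without 1 library it lay between 60 genes (without untreated library 2) and 2328 genes (without IL-13 library 1), against 809. The groups overlapped in all 7, while they did not in 15.5% of all genes. None had an unadjusted p under 0.05. Fosb, with 3 to 13 counts per library, was not tested.

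Jun stood at 19.2, 17.0, 21.9 and 44.2 CPM in untreated and at 16.8, 18.8, 20.0 and 39.5 CPM in IL-13 libraries at day 6. The groups overlapped, and library 4 held about the same high level in both. The means were 25.6 ± 12.6 and 23.8 ± 10.6 CPM (log2 fold change -0.09, SE 0.40, edgeR adjusted p = 0.905). Jund had 5.28, 5.47, 6.14 and 8.41 CPM in untreated and 4.33, 7.88, 9.23 and 9.68 CPM in IL-13 libraries. The ranges overlapped, and IL-13 library 1 was the lowest of all 8 (log2 fold change 0.31, SE 0.24, edgeR adjusted p = 0.420). Without that library Jund was called higher (0.49, edgeR adjusted p = 0.0495).

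Atf3 stood at 15.001, 15.9, 17.7 and 26.2 CPM in untreated and at 18.5, 19.0, 17.9 and 25.8 CPM in IL-13 libraries. The groups overlapped (log2 fold change 0.13, SE 0.18, edgeR adjusted p = 0.675). Fos had 4.31, 3.33, 4.16 and 13.3 CPM in untreated and 4.64, 3.97, 3.34 and 14.6 CPM in IL-13 libraries, again with library 4 far above the others in both groups (0.10, SE 0.64, edgeR adjusted p = 0.938). Fosl1 lay at 37.6-59.1 and 39.3-61.1 CPM (0.03, SE 0.17), Fosl2 at 98.4-112 and 96.0-108 CPM (-0.03, SE 0.06) and Junb at 0.837-2.96 and 0.371-4.43 CPM (0.21, SE 0.59). The SE of Fos, 0.64, is wide against its change of -1.08 at day 0, and a missed threshold does not show equal levels for any of the 7.

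Nuclear RNA also differed between these groups, with 1600-2594 CPM in untreated and 895-1419 CPM in IL-13 libraries. Of 14 RNAs 11 were called lower, where 4.34% of all genes were. Without untreated libraries 1 and 2, the highest for these RNAs, 1 of 14 was called lower, and without both libraries 4, a choice made after seeing the data, 6 of 14. Its part in the values of day 6 was not tested.

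Between day 0 and day 6 the members changed in both directions. In untreated cells Atf3 rose 7.76-fold and Fosl1 2.87-fold, while Fosb fell 3.95-fold, Junb 2.29-fold and Jund 1.55-fold. In all, 5 of 8 members were called, where 80.5% of the 13157 genes tested were called (41.5% higher and 39% lower), and in 5 of 8 the groups did not overlap (75.5% of all genes). Both shares are no higher than the background. In IL-13 cells all 8 members were called, where 80.8% of all genes were (40.6% higher and 40.3% lower): Atf3, Fosl1, Fos and Fosl2 rose, and Jun, Fosb, Jund and Junb fell. The groups did not overlap in 7 of 8 members there (74.8% of all genes), all but Junb. The nuclear RNAs moved with the same comparisons, with 10 of 14 higher and 1 lower in untreated cells and 8 higher and 1 lower in IL-13 cells, and their part in the AP-1 values was not tested.

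Atf3 had the largest rise, from 2.41 ± 0.286 to 18.7 ± 5.10 CPM in untreated cells (log2 fold change 2.96, SE 0.19, edgeR adjusted p = 1.10e-11). In IL-13 cells, which started higher, it went from 5.72 ± 0.595 to 20.3 ± 3.69 CPM (1.83, SE 0.17, edgeR adjusted p = 3.87e-09). Its order of levels was untreated day 0, then IL-13 day 0, then the 2 groups of day 6, which did not differ beyond their spread.

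Fosl1 went from 17.4 ± 2.31 to 49.99 ± 9.32 CPM in untreated cells (log2 fold change 1.52, SE 0.16, edgeR adjusted p = 1.16e-07). With IL-13 it went from 13.2 ± 1.76 to 50.4 ± 10.6 CPM (1.94, SE 0.16, edgeR adjusted p = 7.50e-09). Every library of day 6 lay above every library of day 0. Fosl2 lay within 77.5-112 CPM in all 16 libraries, with a log2 fold change of 0.05 (SE 0.06, edgeR adjusted p = 0.430) in untreated cells and 0.27 (SE 0.06, edgeR adjusted p = 0.000384) in IL-13 cells. Only its IL-13 group of day 0 stood below the other groups.

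Fos went from 3.35 ± 1.20 to 6.27 ± 4.70 CPM in untreated cells, which was not called (log2 fold change 0.91, SE 0.55, edgeR adjusted p = 0.140). In IL-13 cells it rose from 1.59 ± 0.398 to 6.63 ± 5.32 CPM (2.06, SE 0.62, edgeR adjusted p = 0.00719). Library 4 stood far above the others in both day 6 groups. Without both libraries 4 the edgeR values were 0.19 (adjusted p = 0.455) and 1.34 (adjusted p = 0.000120), a leave-out chosen after the data had been seen. Fosb fell from 1.42 ± 0.182 to 0.354 ± 0.133 CPM in untreated cells (-1.98, SE 0.33, edgeR adjusted p = 1.44e-05) and from 1.37 ± 0.320 to 0.429 ± 0.239 CPM in IL-13 cells (-1.64, SE 0.32, edgeR adjusted p = 0.000102).

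Jun fell in IL-13 cells from 90.0 ± 3.91 to 23.8 ± 10.6 CPM (log2 fold change -1.92, SE 0.30, edgeR adjusted p = 4.08e-05). In untreated cells it went from 32.7 ± 2.86 to 25.6 ± 12.6 CPM and was not called (-0.35, SE 0.30, edgeR adjusted p = 0.295). There 3 of 4 libraries of day 6, at 17.0-21.9 CPM, lay below all of day 0, and library 4, at 44.2 CPM, lay above them. Without that library Jun was called lower (-0.79, edgeR adjusted p = 0.00742), and likewise without both libraries 4 (-0.79, adjusted p = 5.01e-07). IL-13 cells of day 0 had the highest Jun by far. The means of the other 3 groups lay nearer each other, with library 4 raising both means of day 6. Libraries 1 to 3 of day 6 lay at 17.0-21.9 CPM in untreated and 16.8-20.0 CPM in IL-13 cells. All were below the untreated libraries of day 0, at 30.5-36.7 CPM.

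Jund fell from 9.82 ± 0.900 to 6.32 ± 1.44 CPM in untreated cells (log2 fold change -0.63, SE 0.20, edgeR adjusted p = 0.00647). In IL-13 cells it fell from 19.0 ± 2.69 to 7.78 ± 2.42 CPM (-1.29, SE 0.19, edgeR adjusted p = 3.67e-06). As for Jun, the IL-13 group of day 0 was the highest, and the 2 groups of day 6 did not differ beyond their spread. Junb went from 4.09 ± 0.934 to 1.76 ± 0.883 CPM in untreated cells (-1.20, SE 0.45, edgeR adjusted p = 0.0235) and from 4.35 ± 0.963 to 2.02 ± 1.72 CPM in IL-13 cells (-1.08, SE 0.44, edgeR adjusted p = 0.0346). Both Junb calls were close to the threshold. With all libraries kept they were lost without a filter on low counts (edgeR adjusted p = 0.0505 and 0.0846), and in IL-13 cells also with DESeq2 (adjusted p = 0.0512). They were lost in 3 and in 6 of the 16 fits that leave out 1 library each (adjusted p up to 0.0673 and 0.0983). In untreated cells the call ended without untreated day 0 library 3 (-1.06) and without untreated day 6 library 1 (-0.99) or 2 (-1.15). In IL-13 cells it ended without IL-13 day 0 library 2 (-0.92) or 3 (-1.05), without untreated day 6 library 3 (-1.06), and without IL-13 day 6 library 1 (-0.71), 2 (-0.99) or 3 (-0.95).

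Whether the IL-13 effect differed between day 0 and day 6 was tested in a fit of all 16 libraries. The difference, day 6 minus day 0, was called for Jun and Atf3, 2 of 8 members, where 8.06% of the 13157 genes were called (3.12% higher and 4.95% lower). Of all called genes 410 of 1061 were higher, against 516 of 1014 with total count scaling and 509 of 1014 with DESeq2's size factors. Both members had smaller IL-13 effects at day 6 than at day 0. For Jun the difference was -1.57 (SE 0.42, edgeR adjusted p = 0.0372) and for Atf3 -1.13 (SE 0.25, edgeR adjusted p = 0.00722). Atf3 was called under every alternative run. Jun was close to the threshold: leaving out 1 library at a time gave values from -1.89 to -1.10 and ended the call in 12 of 16 fits, with edgeR adjusted p from 0.00445 to 0.0931. The call held only without untreated day 0 library 3 (-1.63), untreated day 6 library 1 (-1.64) or 2 (-1.68), or IL-13 day 6 library 4 (-1.89). Leaving out both libraries 4 of day 6 kept it (-1.47, edgeR adjusted p = 7.52e-07). Fosl2 gained a call without IL-13 day 0 library 4 (0.2982), untreated day 6 library 4 (0.2982) or IL-13 day 6 library 3 (0.29). In the fit of all libraries Fos (1.15, SE 0.84), Fosl1 (0.42, SE 0.23), Fosl2 (0.22, SE 0.08), Jund (-0.65, SE 0.27), Fosb (0.34, SE 0.49) and Junb (0.11, SE 0.64) were not called. The DESeq2 Wald test called the difference for Fosl2 (0.25, adjusted p = 0.0481). In edgeR's fit, a call at day 0 without one at day 6 was not shown to differ between the days for Fos, Fosl1, Fosl2 and Jund, and for Fosl2 and Jund this depended on the fit.

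Library 4 of both day 6 groups held the highest level in 7 of the 8 members, all but Fosl2. This was seen in 6.25% of the 13157 genes, and no other library number was highest in both groups for any member. The ratio of library 4 to the mean of libraries 1 to 3 was 3.38 in untreated and 3.66 in IL-13 cells for Fos, 2.28 and 2.13 for Jun, 2.17 and 3.65 for Junb and 1.61 and 1.40 for Atf3. For Fosb it was 1.46 and 2.37, for Jund 1.495 and 1.35 and for Fosl1 1.26 and 1.30, and for Fosl2 it was 1.08 and 0.986. The median gene had ratios of 1.00 and 0.995, and only 18 of 13112 genes in untreated and 21 of 13109 in IL-13 cells had a larger ratio than Fos.

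Other immediate early genes stood out in the same libraries, 12 of 19 being highest in library 4 of both groups (63.2%), as did 6 of 15 MAP kinase phosphatases and feedback inhibitors (40%). Egr1 was 8.80 and 8.10 times and Cyr61 5.29 and 4.97 times the mean of libraries 1 to 3, while Arc of the same list was 0.835 and 0.704 times. Dusp1, a MAP kinase phosphatase, stood at 2.08 and 1.88 times, and Dusp7, another, at 0.826 and 0.830 times. These genes were named after their values were seen. No marker of adipocytes was highest there in both groups, of 9, and no nuclear RNA, of 14. With 6.25% of all genes highest there, finding none in lists this short does not set the adipocyte markers or nuclear RNAs apart from the background. Textbook AP-1 targets held 4 of 19 (21.1%), other bZIP genes 2 of 16 (12.5%) and MAP kinases 2 of 20 (10%) that were highest in library 4 of both groups. The 8 tested preadipocyte markers, 13 genes for turnover of AP-1 and 6 genes of serum response factor and its partners held none. The labels give no property that sets these 2 libraries apart from the others, and what goes with them was not tested. Their totals, 17434256 and 18112087 counts, were the largest of their groups.

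**Figure D4:**
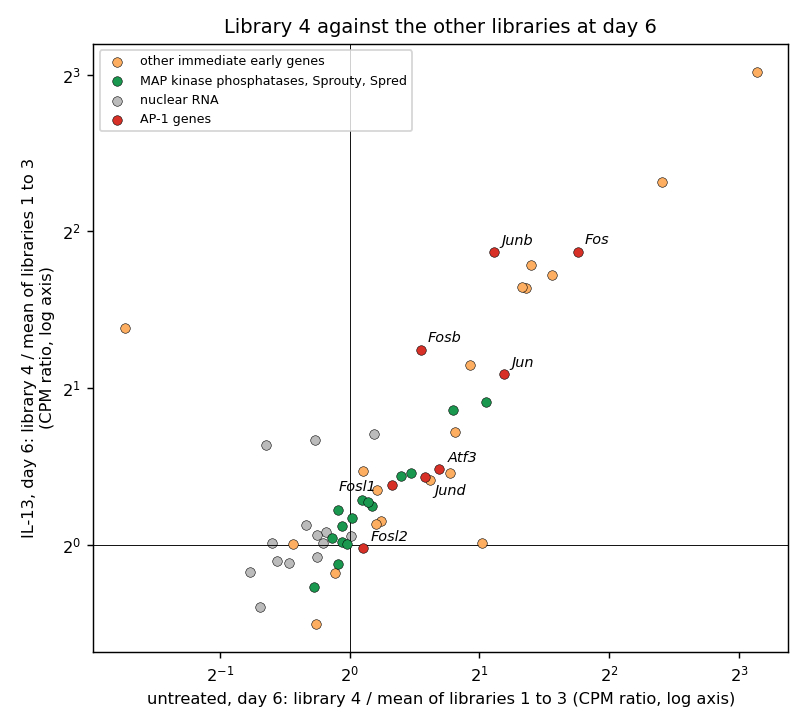
Each point is 1 gene, placed by the ratio of library 4 to the mean of libraries 1 to 3 in untreated (x axis) and IL-13 cells (y axis) at day 6, on log axes, with lines at a ratio of 1. The AP-1 genes in red lie above 1 on both axes except Fosl2, with Fos at 3.38 and 3.66, among the other immediate early genes in orange. The nuclear RNAs in grey lie between 0.586 and 1.14 on the x axis and between 0.760 and 1.63 on the y axis. On the y axis Pnisr, Dnm3os and Firre of the nuclear RNAs stand above Atf3 at 1.40.

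Other genes of the pathway were listed by role, and each count at day 0 stands beside 23.7% higher and 24.2% lower over all genes. Upstream, 5 of 20 tested MAP kinases and their activators rose with IL-13 at day 0 and 3 fell, a share called that is below the 47.9% of all genes, with the median log2 fold change at 0.04 against -0.01 for all genes. Egfr, the epidermal growth factor receptor, rose (0.71, SE 0.06, edgeR adjusted p = 1.62e-07), as did Hras, while Nras fell by 0.28 on the log2 scale. With total count scaling 3 rose and 7 fell. Serum response factor (Srf) drives Fos with ternary complex factors such as Elk4, and Mkl1 and Mkl2 are its myocardin-related coactivators. Of these 6 genes 2 fell at day 0, Mkl2 (-0.57) and Elk4 (-0.78), and with total count scaling 5 fell. Of 15 phosphatases and feedback inhibitors of MAP kinases, 8 fell and none rose at day 0, and the list's median was -0.40. Spry1, an inhibitor of receptor tyrosine kinase signals, fell by 1.61 (SE 0.11, edgeR adjusted p = 1.47e-08), Dusp6, an ERK phosphatase, by 1.45 (SE 0.13) and Dusp5 by 0.97 (SE 0.12) on the log2 scale. The difference between the days was called higher for 6 of these 15 and lower for none, where 3.12% and 4.95% of all genes were. Those called were led by Dusp6 (1.32, SE 0.16, edgeR adjusted p = 5.02e-06), Spry1 (1.52, SE 0.19) and Spry4 (0.66, SE 0.14).

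Of the 19 other immediate early genes 13 fell and 2 rose at day 0, with a median of -0.39. Those that fell included Nr4a1 (-1.57, SE 0.15) and Ctgf (-1.26, SE 0.08). Klf4 (1.82, SE 0.05, edgeR adjusted p = 6.23e-13) and Cyr61 (0.18, SE 0.07) rose, as Jun and Atf3 did, while Fos fell like most of the list. In the fit of all 16 libraries 5 fell and 1 rose, and without untreated libraries 1 and 4 of day 0 the counts were 7 and 2. Of 16 other bZIP genes 10 fell and 1 rose, Atf5 (0.66, SE 0.07), and those that fell included Atf2, a partner of Jun (-0.38, SE 0.06), and Maff (-0.63, SE 0.11). Without those 2 libraries 6 fell and 1 rose. Of 13 genes for turnover and modification of AP-1 proteins or mRNA, 4 rose and 7 fell, with Zfp36l1, which destabilises AU-rich mRNAs, at -0.72 (SE 0.06), Fbxw7, a ubiquitin ligase for Jun, at -0.41 (SE 0.08) and the coactivator Ncoa1 at 0.44 (SE 0.06).

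Of 19 tested textbook AP-1 targets 2 rose and 7 fell at day 0, about the share called among all genes (47.9%), and the median was 0.01. Plau, the urokinase protease, rose (1.14, SE 0.06, edgeR adjusted p = 5.21e-10), as did Timp1, an inhibitor of metalloproteinases (0.55, SE 0.08). Among those that fell, Hmga2 fell by 0.90 (SE 0.06) on the log2 scale. Between the days 14 of 19 fell and 5 rose in untreated cells, against 13 and 5 in IL-13 cells, with medians of -1.68 and -1.18, where 80.5% and 80.8% of all genes were called. Among them Ccnd1, a cyclin of the G1 phase, fell by 7.30 (SE 0.17) and Timp1 by 4.79 (SE 0.11) on the log2 scale in untreated cells. Genes called for the difference between the days included Hmga2 (0.64, SE 0.12) upward and Plau (-0.92, SE 0.11) downward.

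At day 6, where 6.55% of all genes were called, 4 genes of these lists were called with IL-13. Mafg (-0.29, SE 0.07) and Maf (-0.36, SE 0.10), both bZIP genes, Spred3 (-1.64, SE 0.29), a feedback inhibitor, and Vegfa (-0.62, SE 0.12), a growth factor gene among the targets, were called lower. In this fit no gene of these lists was called higher. Spred3 was low, at 0.371-0.682 CPM in IL-13 libraries 1 to 3. Without untreated libraries 1 and 2 no bZIP, feedback or target gene was called, and without both libraries 4 only 1 target was. DESeq2 called 2 turnover genes higher and 2 lower. With the replicate block 3 MAP kinases rose and 3 fell, 2 targets rose and 1 fell, and 2 turnover genes rose and 2 fell. In 4 lists edgeR called 0 genes: 20 MAP kinases, 6 genes of Srf and its partners, 18 immediate early genes and 13 turnover genes. At an unadjusted p under 0.05 these held 5, 1, 1 and 5 genes, and DESeq2 called 1, 1, 0 and 4.

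Over the 6 days 41.5% of all genes rose and 39% fell in untreated cells, and 40.6% and 40.3% in IL-13 cells. Of 15 feedback genes 8 rose and 6 fell in untreated cells, against 8 and 4 in IL-13 cells. Those that fell in untreated cells were Dusp7, Spry1, Spred3, Dusp14, Spred1 and Dusp5, named after their values were seen. Among those that rose was Dusp4, up 9.08-fold in untreated and 12.8-fold in IL-13 cells. Dusp6 rose 5.10-fold and 12.8-fold and Spry4 5.67-fold and 8.95-fold. Of Srf and its partners 5 of 6 fell in both, with Elk3 down 5.53-fold in untreated cells, and Elk4 rose. Of the MAP kinases 11 of 20 rose in both, led by Rps6ka3, the kinase Rsk2, with a 4.01-fold rise in untreated cells, and 4 and 6 fell. Among bZIP partners 11 of 16 rose and 5 fell in untreated cells, against 10 and 4 in IL-13 cells, with Atf4, the amino acid stress factor, up 2.18-fold and Maff, a small Maf protein, up 3.41-fold in untreated cells, while Jdp2, a repressor that pairs with Jun, fell 3.12-fold. Of other immediate early genes 6 rose and 9 fell in untreated and 7 and 9 in IL-13 cells, with Klf4 down 6.61-fold and 23.5-fold. Of turnover genes 6 rose and 2 fell, against 8 and 1.

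The genes most like each member were ranked by Pearson's r of log2 CPM over the 16 libraries, a description in which the points share groups and libraries. Fos was most like Usp30 (r = 0.92), Ier2 (0.92) and Dusp1 (0.91), the last 2 being immediate early genes. Ier2 had 6.55, 5.16, 11.7 and 12.8 CPM in untreated and IL-13 cells of day 0 and then of day 6. Fosl1 was most like Hmox1 (0.99), heme oxygenase, then Gtf2ird1 (0.99) and Maff (0.99). Jun was most like Rgs16 (0.94), a regulator of G protein signals whose mean was 4.29 CPM in untreated and 17.2 CPM in IL-13 cells of day 0 and 3.65 and 3.28 CPM at day 6, then Tcf7l1 (0.93) and Dhrs1 (0.93). Atf3 was most like Tmco1 (0.99), Agpat5 (0.99) and Tbc1d20 (0.99). Jund was most like Erp29 (0.98), Plin3 (0.97) and Mcrip1 (0.96), and Fosl2 like Pdcd4 (0.95), Kbtbd2 (0.93) and Uevld (0.93). For Fosb the leading genes were Bcl10 (0.96), Camk1d (0.95) and Tmem86a (0.95), and for Junb Nr1d1 (0.90), Rusc2 (0.90) and Dmwd (0.90). Among the members themselves Jun and Jund had the highest r at 0.92, followed by Fosl1 and Atf3 at 0.86 and Junb and Jund at 0.81, and Fosb and Fosl1 the lowest at -0.84.

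How reads were counted bears on 4 members. In the GENCODE M21 annotation 57.2% of the exon bases of Fosl1 overlap Ccdc85b on the other strand, 52.6% of Jund overlap Gm11175, 7.28% of Jun overlap Junos and 7.52% of Junb overlap Prdx2. The library kit keeps the strand, but whether counting used it is not given in the sources used here, and reads of overlapping partners could then not be told apart. Ccdc85b reached at most 1.71 CPM and Gm11175 0.534 CPM in any library, and Junos 2.14 CPM, far below Fosl1, Jund and Jun. If counting ignored the strand, these levels come from the same assignment of shared bases. They then set no bound on the partners' part in the members' values, which was not tested. Prdx2 stood at 119.8-259.8 CPM, far above Junb at 0.371-5.64 CPM. The group means of Prdx2 stood in the same order as those of Junb, at 209.8 and 244 CPM in untreated and IL-13 cells of day 0 and at 129 and 159.6 CPM at day 6. The part of Prdx2 reads in the Junb values was not tested. Junos, like Jun, was highest in IL-13 cells of day 0, at 1.82 ± 0.274 CPM against 1.17 ± 0.125 CPM in untreated cells. No stretch of 50 bases in the transcripts of the 8 genes also occurred in another gene.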

How the data were processed

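RNA was sequenced from 16 libraries in 4 groups of 4, made from 2 ug of RNA each with a stranded mRNA kit, per the labels' protocols. Reads were assigned to genes of mouse build mm10, per the submitters' processing notes, and neither aligner nor counter is given in the sources used here. The authors deposited a whole-number count per gene and library, without normalization, per the file headers. They also deposited TPM, used here for levels between genes, and RPKM, which was not used in any result, both per the file headers. A further column named CPM, treated as a score because its sums show an adjusted library size that is not described, was deposited by the authors and was not used.

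The groups come from the sample titles. Counts were tested with edgeR 4.0.16 in R 4.3.3 (robust quasi-likelihood, TMM, filterByExpr at its default minimum counts, 10 in a library and 15 in total) and Benjamini-Hochberg adjustment over all genes tested, each IL-13 comparison on its own 8 libraries and the day and difference comparisons on all 16. SE was taken from the fold change and the F statistic. The scripts were tested on simulated data. Libraries held 15253031 to 18112087 counts, and depth limits genes such as Fosb most. Alternatives used DESeq2 1.42.0, limma 3.58.1, other scalings, no filter, a replicate block and left-out libraries. Same-numbered libraries did not all deviate together, so the numbers were not taken as pairs.

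The members and gene lists were chosen with earlier results of these data known. Genes named beyond the members were the 3 most alike by Pearson's r among genes whose log2 CPM averaged 1 or more, and up to 3 called genes per list and comparison by smallest p, and 1 gene that this rule names is not reported here. Some genes were chosen after their values were seen. These were Timp1 and Cyr61 at day 0 and Elk4 over the days, named to complete a small count. In library 4 they were Egr1, Cyr61, Arc, Dusp1 and Dusp7. Promoters came from RefSeq (GRCm38.p6) and exon overlaps from GENCODE M21.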

Additional observations from a re-analysis of the deposited data

Results flagged for a closer look

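In 4 of the 32 sets of 4 libraries (8 genes in 4 groups), 1 library lay apart from the other 3 by more than Dixon's critical value for 4 samples, a rule that marks about 5% of groups by chance. In each it was library 4 of day 6: Fos at 13.3 CPM in untreated cells against 3.33-4.31 CPM in the others, Fos at 14.6 CPM in IL-13 cells against 3.34-4.64 CPM, Jun at 39.5 CPM in IL-13 cells against 16.8-20.0 CPM, and Atf3 at 25.8 CPM in IL-13 cells against 17.9-19.0 CPM.

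In edgeR's test of the difference itself, the effect of IL-13 was called as differing between the days for Jun (-1.57 on the log2 scale, SE 0.42, edgeR adjusted p = 0.0372) and Atf3 (-1.13, SE 0.25, edgeR adjusted p = 0.00722). The call for Jun was lost in 12 of 16 fits that leave out 1 library each and without a filter on low counts (-1.51, edgeR adjusted p = 0.0820).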

How the results depend on the processing

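Of 784 values for single members under alternatives, 715 kept their direction and side of the threshold, 27 lost a call, 8 gained one and 34 changed sign. The sign changes all fell on members that were not called. Of 100 counts of members called, 89 stayed within 1.5 times and 11 moved. Leaving out 1 library at a time gave 0 to 1 members called at day 6 and 1 to 2 for the difference between the days, and without a filter on low counts the difference was called for 1 member.

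At day 0 Fosb ranged from -0.17 to 0.0504 and Junb from -0.0724 to 0.21 without 1 library at a time, and Junb was -0.0466 with total count scaling and -0.0179 without untreated libraries 1 and 4. At day 6 the ranges were -0.65 to 0.78 for Fos, -0.0866 to 0.12 for Fosl1, -0.46 to 0.31 for Jun, -0.54 to 0.59 for Junb and -0.0104 to 0.34 for Atf3. Without untreated day 6 libraries 1 and 2, Fos was -0.40, Fosl1 -0.18, Junb -0.21 and Atf3 -0.12, and with total count scaling Fosl1 was -0.0597. Without both libraries 4 Junb was -0.16. Fosl2 over the days in untreated cells was -0.0499 with total count scaling, -0.00995 without both libraries 4 and -0.0108 to 0.0639 without 1 library. For the difference between the days Fosb ranged from -0.0564 to 0.63 and Junb from -0.60 to 0.55, and Junb was -0.22 with limma-voom and -0.21 without both libraries 4. The cause was not tested.

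Of all genes at day 6, 809 were called, against 2812 with the replicate block, 1428 by DESeq2, 1405 in the fit of all libraries, 2 without untreated libraries 1 and 2 and 131 without both libraries 4. Leaving out 1 library gave 60 to 2328, with 102 and 60 without untreated library 1 or 2, 523 without untreated library 3, 2328, 62, 205 and 320 without IL-13 libraries 1 to 4 and 788 without untreated library 4. For the difference between the days 1061 were called and 1608 with the block. With the replicate block 0 members were called at day 6 and 3 for the difference, Jund being added (edgeR adjusted p = 0.0450). Same-numbered libraries correlated from -0.12 to 0.21 in their deviations over the 6 pairs of groups. Between the day 6 groups the values were 0.197, 0.00611, 0.171 and 0.215 for numbers 1 to 4. Libraries of different numbers ranged wider there. Untreated library 2 with IL-13 library 1 had the highest value, 0.269, and untreated library 3 with IL-13 library 1 had -0.220. The numbers were not taken as pairs. With the block at day 6, 6 of 20 MAP kinases, 3 of 18 immediate early genes and 4 of 13 turnover genes were called. Total count scaling moved the median of all genes at day 0 to -0.13, with 1682 of 6205 called genes higher.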
